A study of Enchytraeus albidus with 15 samples.

Results

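Adult Enchytraeus albidus, a white potworm of the oligochaetes used to test soil toxicity, were compared after 2 days in OECD soil spiked with silver nanoparticles (Ag-NP) at 200 mg/kg and after 2 days in clean OECD soil. This comparison uses 6 of the 15 arrays of the series, 3 replicates of Ag-NP at 200 mg/kg and 3 of clean soil. The other 9 arrays hold worms from Ag-NP at 100 mg/kg and from silver nitrate (AgNO3) at 100 and 200 mg/kg. Each replicate is a vessel of 10 worms with a developed clitellum, the glandular band of sexually mature worms, extracted together as whole bodies. Animals of 1 vessel cannot be told apart, and neither can a change in the number of cells of a type and a change in RNA per cell. The labels call the replicates biological, describe no size or coating of the particles, and give the same stage and tissue for every group.

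The array carries 1035 probes, and 399 of them (38.6%) entered the tests, namely those well above background on all 3 arrays of Ag-NP at 200 mg/kg or on all 3 arrays of clean soil. The 636 remaining probes were left out of the tests, and 462 of them were well above background on no array of either group. Each probe is printed 14 or 15 times on an array. Levels are given as log2 of the spot signal relative to the 75th percentile, on the same array, of the 227 probes detected on all 15 arrays. A level of 0 is thus a bright signal, and a difference of 1 is 2-fold. The files name probes by clone or contig and pair none of them with a gene, so the silver label could not be checked against any metal-response gene, and no gene list could be examined.

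Silver nanoparticles in soil are a source of silver ions as well as of particles, while silver nitrate dissolves and gives ions at once. Silver ions bind thiol groups of proteins, and in many animals metal exposure induces metallothioneins, small cysteine-rich proteins that bind metal ions, along with heat shock proteins and antioxidant enzymes. Enchytraeids take up metals through the skin and through ingested soil.

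The number of probes detected spread less among the Ag-NP arrays than among those of clean soil. With Ag-NP at 200 mg/kg 427, 469 and 441 probes were well above background in replicates 1, 2 and 3, against 539, 530 and 280 in clean soil. Clean-soil replicate 3 was the low one, and over all 15 arrays the number ran from 251 to 589. Brightness, taken as the processed signal that 75% of an array's spots stay below, was 16.9, 24.2 and 31.1 with Ag-NP and 45.3, 33.6 and 18.7 in clean soil, and these ranges overlap (two-sided exact permutation test, p = 0.4, n = 3 each, the smallest possible being 0.1). Ag-NP replicates 1 and 2 lay on slide 1 together with clean-soil replicate 1. Ag-NP replicate 3 and clean-soil replicate 3 lay on slide 3, which was scanned on another day, and clean-soil replicate 2 was alone on slide 2. Of the tested probes, 11 were saturated on all 6 arrays, and 13 on at least 1 of the 6. No difference was measured in these. The counts of spread and precision and the same-slide differences given here leave out the 13, while the split into dim and bright probes includes them.

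**Figure D1:**
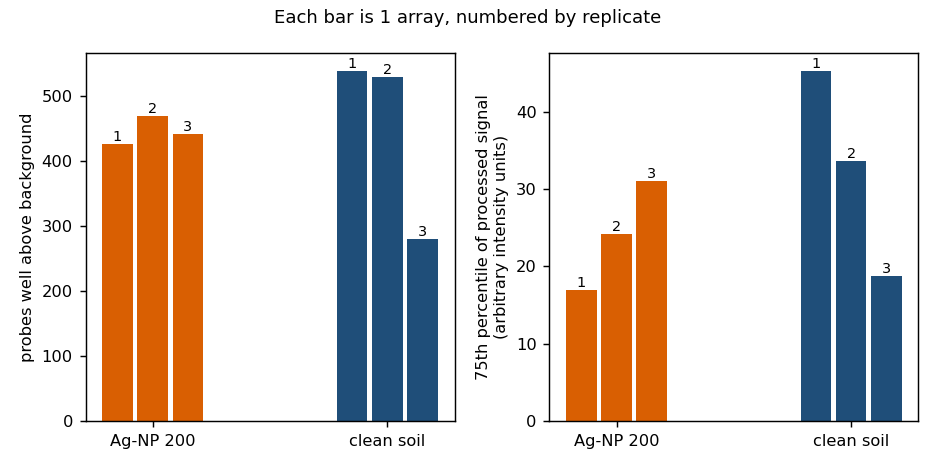
Number of probes well above background (left) and the 75th percentile of the processed signal in arbitrary intensity units (right). Each bar is 1 array, with Ag-NP at 200 mg/kg left of clean soil. The 3 Ag-NP arrays have 427 to 469 probes, while the clean-soil arrays run from 280 to 539.

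No transcript passed the test in worms kept with Ag-NP at 200 mg/kg against clean soil. Of the 399 probes 0 (0%) had an adjusted p below 0.05 (limma, fitted over all 15 arrays with Benjamini-Hochberg adjustment), and the smallest adjusted p was 0.364. An unadjusted p below 0.05 was reached by 33 probes (8.27%), 12 of them higher (3.01%) and 21 lower (5.26%). The log2 differences had a median of -0.09, with quartiles at -0.44 and 0.27 and extremes at -1.64 and 3.01. Scaling moved that median: it was 0.14 with the 75th percentile of all spots, 0.19 with the array median and -0.24 with the spike-in probes.

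A difference over 2-fold was found in 23 higher and 28 lower probes, and a difference over 4-fold in 7 higher probes and 0 lower. The filter did not treat the directions alike. It admitted 122 probes through the Ag-NP arrays alone and 5 through the clean-soil arrays alone, so the upper tail is not read as a response. Complete separation of 3 from 3 arrays has a probability of 0.1 in a probe without a group difference, and the probes share their arrays. All 3 Ag-NP arrays lay beyond all 3 clean-soil arrays in 53 probes (13.3%), which were 25 higher (6.27%) and 28 lower (7.02%). That split depends on the scaling, with 44 higher and 17 lower for the 75th percentile of all spots, 45 and 11 for the array median, 18 and 5 for the spike-in probes, 37 and 27 after quantile normalization and 37 and 10 in the authors' values. It also depends on the filter, with 12 higher and 20 lower among the 272 probes well above background on all 6 arrays, and 26 and 63 among all 1035. Among those 53 the difference was over 2-fold in 14 of the higher and in 5 of the lower probes. The precision was limited: over the 386 unsaturated probes the median standard error was 0.43, and the 95% interval of the difference stayed within 2-fold in either direction for 86 (22.3%) and within 4-fold for 303 (78.5%).

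**Figure D2:**
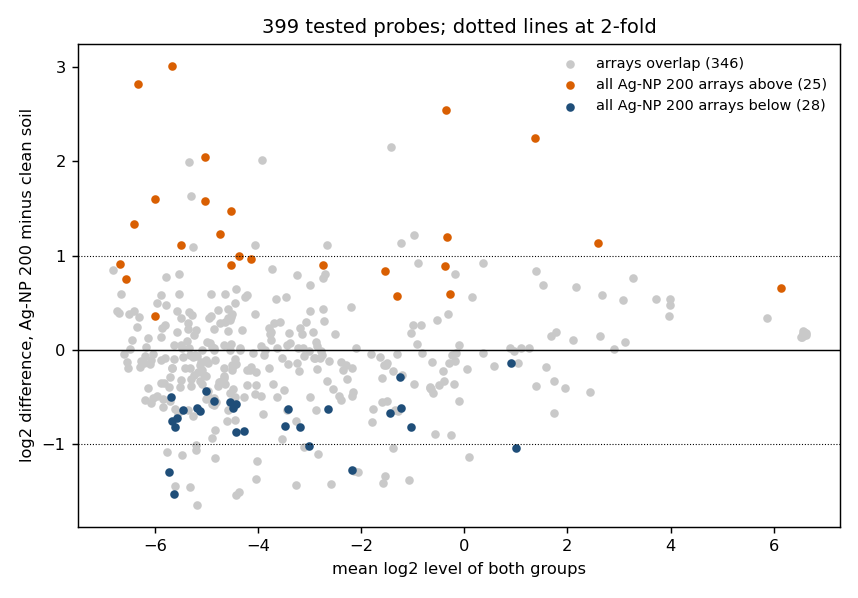
Log2 difference between Ag-NP at 200 mg/kg and clean soil (vertical) against the mean log2 level of both groups (horizontal). Each point is 1 of the 399 tested probes, coloured where all 3 Ag-NP arrays lie above (25) or below (28) the clean-soil arrays. The 7 points over 4-fold all lie on the upper side. Of the tested probes, 122 entered through the Ag-NP arrays alone and 5 through the clean-soil arrays alone.

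The higher side was led by P2_C1_T7_1328895. Its levels were 1.69, 1.06 and 0.04 in the Ag-NP worms, against -1.30, -1.61 and -1.95 in clean soil. All 6 arrays measured it well above background, and the lowest Ag-NP array was above the highest clean-soil array. It was 5.84-fold higher with Ag-NP, a log2 difference of 2.55 ± 0.73 (SE, 95% interval 0.99 to 4.10), which did not pass in limma (adjusted p = 0.364). On slide 1 the Ag-NP arrays were 2.99 and 2.36 above the clean-soil array of that slide, and on slide 3 the difference was 1.99.

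Ealb_Met_P2_F2_SP6_2090247 followed the same order of arrays. Its levels were 3.13, 2.65 and 1.68 with Ag-NP, against 0.57, 0.24 and -0.08 in clean soil. The groups did not overlap and all 6 arrays were well above background. The difference of 2.25 ± 0.71 (log2, SE), or 4.75-fold, did not pass (limma, adjusted p = 0.391). Its same-slide differences were 2.56 and 2.09 on slide 1 and 1.76 on slide 3.

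Ealb_Met_P3_C7_SP6_2090377 was the only tested probe well above background on all 3 Ag-NP arrays and on none of the 3 clean-soil arrays, and no probe showed the opposite. Its levels were -3.91, -4.61 and -6.23 with Ag-NP, and the measured values in clean soil, not well above background, were -8.11, -7.98 and -7.12. Its mean was at least 3.55-fold higher with Ag-NP, a bound set by the dimmest probes still well above background on the clean-soil arrays, and it did not pass (limma, adjusted p = 0.391). With normexp background correction, which adds a constant of 50 to every signal and so shrinks log2 differences between dim signals, its log2 difference was 0.54, below that bound.

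These 3 probes and Ealb_Met_P2_H10_SP6_2090310, which was singled out after its values were seen, varied together from array to array. Ealb_Met_P2_H10_SP6_2090310 had levels of -3.25, -3.78 and -5.43 with Ag-NP and -6.92, -7.38 and -7.20 in clean soil, where 1 of 3 arrays was well above background. Its fitted log2 difference of 3.01 ± 0.97 (SE, adjusted p = 0.391 in limma) was thus taken in part against values not well above background. Over the 15 arrays, deviations from the group means correlated at Pearson's r = 0.92 to 0.99 in the 6 pairs of these 4 probes, against a median of 0.10 over all pairs of tested probes. Values of r at or above 0.92 occurred in 1.25% of all pairs, and the arrays share their scaling. No further probe reached r = 0.9 with P2_C1_T7_1328895. All 4 names come from different clones, and the files do not say whether the probes report 1 transcript.

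For the same 4 probes the outcome depended on which arrays set the spread, and other probes passed under other choices of arrays. Fitted with the 6 arrays of both groups alone, these 4 passed in limma, with adjusted p of 0.0383 for P2_C1_T7_1328895 and Ealb_Met_P2_H10_SP6_2090310, 0.0471 for Ealb_Met_P2_F2_SP6_2090247 and 0.0486 for Ealb_Met_P3_C7_SP6_2090377. Ealb_Met_P2_H10_SP6_2090310 and Ealb_Met_P3_C7_SP6_2090377 entered the tests through the Ag-NP arrays alone and were set against clean-soil values mostly or wholly at background. In the fit of 6 arrays the standard error of P2_C1_T7_1328895 was 0.46, against 0.73 over 15 arrays. Its SD among replicates was 0.83 with Ag-NP at 200 mg/kg and 0.32 in clean soil, but 1.46 with Ag-NP at 100 mg/kg and 1.37 with AgNO3 at 100 mg/kg. Replicate 3 of Ag-NP at 100 mg/kg was at 0.48, within the range seen at 200 mg/kg, while replicates 1 and 2 were at -2.34 and -1.54.

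**Figure D3:**
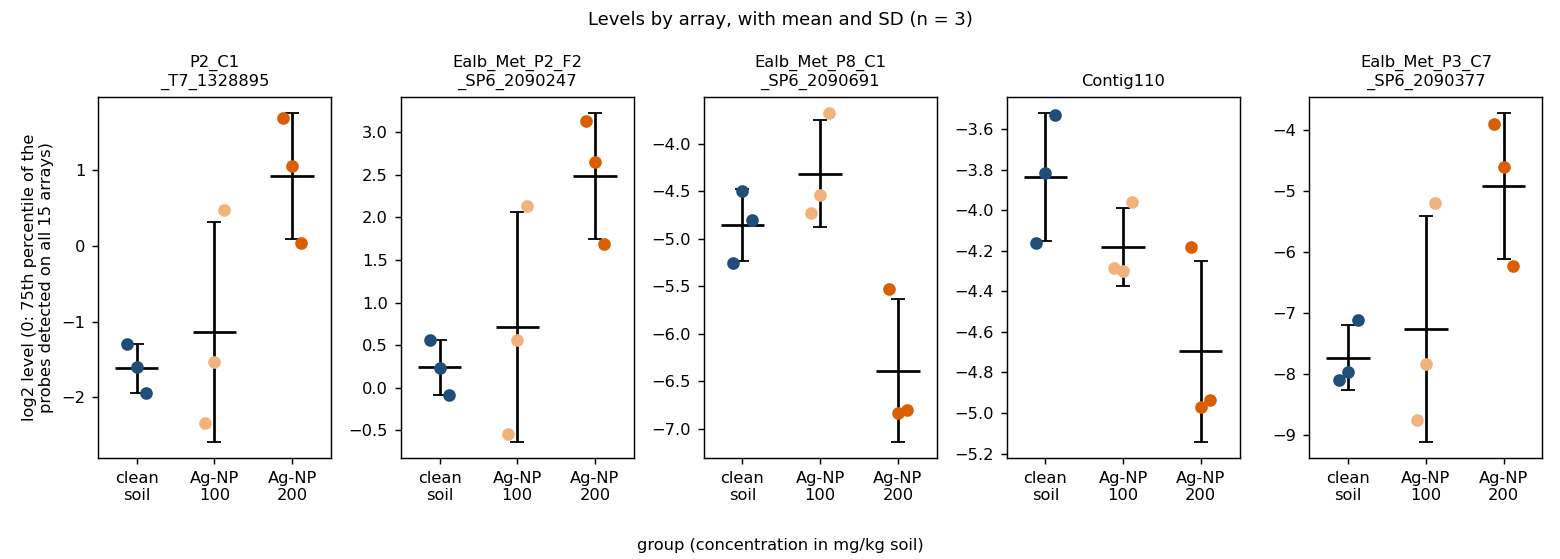
Log2 level, relative to the 75th percentile of the probes detected on all 15 arrays, in clean soil and at 100 and 200 mg/kg of Ag-NP, for 5 probes. Points are arrays, horizontal bars are means and whiskers are SD (n = 3). In the 3 probes higher at 200 mg/kg, replicate 3 at 100 mg/kg lies within the range of the 200 mg/kg arrays. The 200 mg/kg and clean-soil arrays overlap in no panel, which the choice of probes required except for Ealb_Met_P3_C7_SP6_2090377.

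The lower side was led by Ealb_Met_P8_C1_SP6_2090691. Its levels were -5.52, -6.83 and -6.80 in the Ag-NP worms, of which 2 arrays were well above background, against -5.26, -4.50 and -4.81 in clean soil. The groups were separate, though Ag-NP replicate 1 lay close to clean-soil replicate 1 on the same slide. The difference was -1.53 ± 0.41 (log2, SE, 95% interval -2.40 to -0.66) and did not pass (limma, adjusted p = 0.364). In fluorescence the probe had a processed signal of 9.94, 5.71 and 7.91 with Ag-NP and 36.8, 33.4 and 12.3 in clean soil, so its low levels are close to background. With normexp the log2 difference was -0.22.

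Ealb_Met_P6_D3_SP6_2090528 was also lower without overlap, by -1.29 ± 0.38 (log2, SE, adjusted p = 0.364 in limma). It was well above background on only 2 of the 3 clean-soil arrays, and the naming rule required all 3. Contig110 was the second probe to meet that rule. Its levels were -4.18, -4.97 and -4.93 with Ag-NP and -4.16, -3.82 and -3.53 in clean soil, all well above background. Ag-NP replicate 1 and clean-soil replicate 1 differed by -0.02 only, while on slide 3 the difference was -1.40. The fitted difference was -0.86 ± 0.36 (log2, SE), which did not pass (limma, adjusted p = 0.542) and was -0.27 with normexp.

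Most probes that differed in detection had dropped out on a single clean-soil array. Of the 399 probes, 272 were well above background on all 6 arrays. A further 122 were so on all 3 Ag-NP arrays but not on all 3 clean-soil arrays, and in 117 of these the missing array was clean-soil replicate 3, the one with 280 probes. Only 5 probes were well above background on all 3 clean-soil arrays and missing from an Ag-NP array, each from 1 array.

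Within the Ag-NP group replicates 2 and 3 were closest. Their median absolute difference was 0.23 (log2) over the 386 unsaturated probes, with 28 probes (7.25%) over 2-fold apart, although they lay on different slides. Replicate 1 differed from them by a median of 0.55 and 0.54, with 69 and 90 probes over 2-fold apart, and it was the array farthest from the middle one in 237 probes (61.4%). In clean soil the pairs differed by a median of 0.46 to 0.69. The SD over replicates had a median of 0.37 with Ag-NP and 0.49 in clean soil, and was smaller with Ag-NP in 242 probes (62.7%). These probes share the same arrays. Ag-NP replicates 1 and 2 shared a slide, while each clean-soil array lay on its own, so slide and group cannot be told apart in this spread. Without Ag-NP replicate 1, 12 probes passed in limma, all lower with Ag-NP, among them Ealb_Met_P8_C1_SP6_2090691 (adjusted p = 0.0143). The steadiest probe was P4_A2_T7_1329735, at -5.11, -5.12 and -5.13 with Ag-NP and -4.34, -4.56 and -4.85 in clean soil. The most variable was Ealb_Pest_P4_A10_SP6_2091893, at -5.64, -2.55 and -4.84 with Ag-NP and -7.15, -4.74 and -7.13 in clean soil, where the groups overlap.

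Differences taken on slide 1 were not repeated on slide 3 for most probes. On slide 1 the mean of 2 Ag-NP arrays was over 2-fold above the clean-soil array in 59 of the 386 unsaturated probes and over 2-fold below it in 25. On slide 3 the single Ag-NP array was over 2-fold above the clean-soil array in 50 probes and below it in 71. That clean-soil array, replicate 3, detected the fewest probes of the 6. It had 1481 spots marked as outliers, against 661 to 787 on the rest of the 6, so the slide 3 difference rests on a poorer array. There were 18 probes over 2-fold higher on both slides and 3 lower on both, while 16 were over 2-fold apart in opposite directions. Across the 386 probes the differences on the slides, which share no array but share probes and scaling, had a Pearson's r of 0.11 and a Spearman's rho of 0.058, with the same sign in 183 (47.4%). Among the 259 of them that were also well above background on all 6 arrays, r was 0.0035, the sign was the same in 121 (46.7%), 6 were over 2-fold higher on both slides, 3 lower on both and 13 opposite. In that smaller set a difference over 4-fold upward on both slides was found in 1 probe, and over 4-fold downward in 0.

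**Figure D4:**
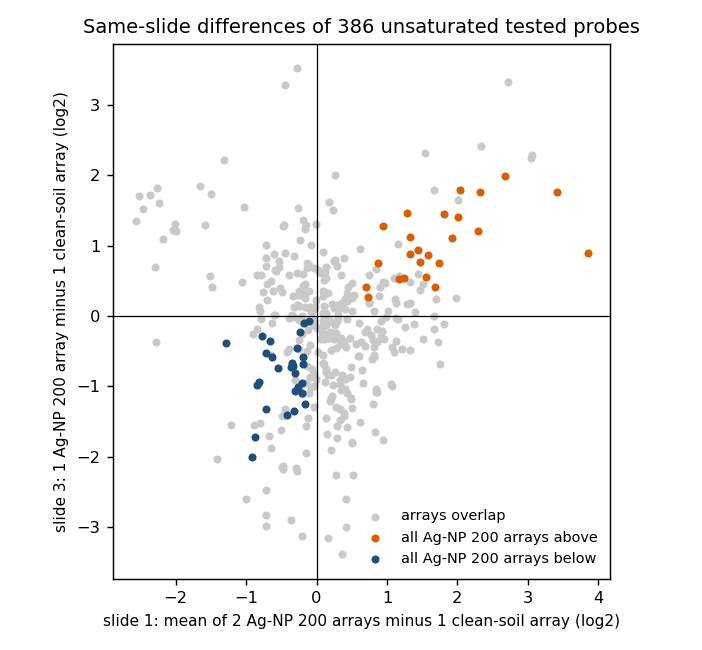
Same-slide log2 differences between Ag-NP at 200 mg/kg and clean soil for the 386 unsaturated tested probes, slide 1 (horizontal, 2 Ag-NP arrays against 1) and slide 3 (vertical, 1 against 1). All points together have r = 0.11, and the coloured points, whose arrays do not overlap, lie in the shared-sign quadrants by their definition.

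The probe names fall into 5 kinds, and none had a called probe. The median log2 difference was -0.12 in 79 Contig probes, -0.07 in 152 Ealb_Met probes, -0.16 in 59 Ealb_Pest probes, -0.11 in 31 other SP6 probes and 0.03 in 78 other T7 probes, beside -0.09 over all 399. The shares that did not overlap upward were 3.80%, 6.58%, 1.69%, 0% and 14.1% in the same order, against 6.27% of all tested probes. The largest such share was in the other T7 probes, with 11 of 78, and P2_C1_T7_1328895 is 1 of them. Downward, the shares ran from 3.39% in Ealb_Pest to 9.21% in Ealb_Met probes. What the prefixes stand for is not given in the files.

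Differences over 2-fold were spread over dim and bright probes. In the dimmest, middle and brightest 133 probes by mean level over all 15 arrays, 10, 6 and 7 probes were over 2-fold higher with Ag-NP and 7, 11 and 10 were over 2-fold lower. The median standard error was 0.46, 0.41 and 0.43. Saturated probes are included in these counts and errors. Among probes that were not saturated, the strongest spot signals with Ag-NP belonged to Ealb_Met_P7_G11_SP6_2090680 and Contig7, a rank of spot signal and not of transcript amount. Ealb_Met_P7_G11_SP6_2090680 was at 5.77, 6.32 and 6.01 with Ag-NP and 5.13, 5.65 and 6.29 in clean soil. Contig7 was at 3.77, 4.63 and 4.37 with Ag-NP and 2.95, 3.66 and 4.52 in clean soil. The groups overlap in both probes, and neither passed in limma (adjusted p = 0.820 and 0.717).

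Against Ag-NP at 100 mg/kg, Ag-NP at 200 mg/kg also had 0 of 399 probes past the test (0%, limma). All 3 arrays at 100 mg/kg lay on slide 3, with 1 of the 200 mg/kg arrays, so within that slide the higher concentration had a single array. An unadjusted p below 0.05 was reached by 19 of the 399 probes, no more than the share of 0.05 that this threshold gives without any difference. Without Ag-NP replicate 1 at 200 mg/kg 3 probes passed. In the main fit the smallest adjusted p was 0.0674 for Ealb_Met_P8_C1_SP6_2090691. That probe was at -5.52, -6.83 and -6.80 at 200 mg/kg, against -4.73, -4.54 and -3.68 at 100 mg/kg, where no array came down to the 200 mg/kg range, a difference of -2.07 ± 0.41 (log2, SE).

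With AgNO3 at 200 mg/kg, 38 of the same 399 probes passed against clean soil (9.52%, limma), 20 up and 18 down. This comparison and that of Ag-NP use the same clean-soil arrays. The count of 38 was not refitted under other processing. The AgNO3 arrays had 477, 388 and 251 probes well above background in replicates 1, 2 and 3. In the 20 that rose with AgNO3 the median log2 difference from clean soil was 0.60 with Ag-NP at 200 mg/kg and 1.70 with AgNO3, and in the 18 that fell it was -0.63 with Ag-NP and -1.83 with AgNO3. All 20 were also above clean soil on average with Ag-NP, and all 18 below it, beside 172 above and 227 below among all 399. The same clean-soil arrays are subtracted in both differences, which favoured equal signs in advance, so the agreement is not read as a shared response. These lists were chosen on the AgNO3 values. Tested directly, the difference between Ag-NP and AgNO3 at 200 mg/kg passed in 4 of the 399 probes (1%, limma), 2 of which were among the 38. It passed in 35 probes without Ag-NP replicate 1, in 0 without Ag-NP replicate 2 or Ag-NP replicate 3, and in 1 with slide as a block or without clean-soil replicate 2.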

How the data were processed

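Cy3-labelled cRNA from 0.5 µg of total RNA was hybridised on single-colour arrays. The deposited files give an intensity for every spot, background-subtracted and detrended within the array with low values replaced, and not scaled between arrays, made with Agilent Feature Extraction 10.5.1.1 per the file headers and the submitters' processing notes. The authors' deposited series table holds log2 values with the same median and 75th percentile on every array, normalized by a method not given in the sources used here. It served as an alternative.

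Control spots and outlier-marked spots were left out, and the log2 processed signal was averaged per probe. A probe counted as well above background when at least 0.5 of its remaining spots did. Because fewer than 0.5 of the probes did so on most arrays, the 75th percentile over the 227 probes that did so on all 15 was subtracted. Differences were tested with limma 3.58.1 in R 4.3.3 over all 15 arrays with group as the only term (10 residual degrees of freedom), called at an adjusted p below 0.05. The procedure was tested on simulated data with noise drawn independently for each probe. That checks the recovery of known changes and does not measure how reliable the count of 0 is. Per comparison and direction, 2 probes were named: those with the smallest p among probes with separate groups, detected on all 3 arrays of the group with the higher level. Also named were probes measured in 1 group only, the strongest unsaturated signals and the smallest and largest SD. A planned comparison of both ends of a clone was void, since no clone had 2 probes. The planned normexp correction used the median spot signal, as the files hold no mean signal. The members and lists were chosen with earlier results of these data known.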

Additional observations from a re-analysis of the deposited data

Results flagged for a closer look

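In 4 probes the response to 200 mg/kg differed between the silver forms when the difference between Ag-NP and AgNO3 was itself tested (limma, Benjamini-Hochberg over 399 probes). They are named because they are so few, after their values were seen. Ealb_Met_P8_C1_SP6_2090691 had a log2 difference of -2.64 between Ag-NP and AgNO3 (adjusted p = 0.00598), at -6.39 ± 0.75 with Ag-NP and -3.75 ± 0.05 with AgNO3 (SD, n = 3 each). Against clean soil it was at -1.53 ± 0.41 with Ag-NP and 1.11 ± 0.41 with AgNO3 (log2 difference, SE), so the forms lay on opposite sides of clean soil, and neither passed there. Ealb_Met_P6_D3_SP6_2090528 had a difference of -1.85 (adjusted p = 0.0303), at -6.37 ± 0.40 with Ag-NP and -4.52 ± 0.75 with AgNO3. Both probes were dim with Ag-NP, and only 2 of the 3 Ag-NP arrays measured Ealb_Met_P8_C1_SP6_2090691 well above background.

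The other 2 were higher with Ag-NP than with AgNO3, and both fell with AgNO3 against clean soil (limma, adjusted p = 0.00558 for Contig11 and 0.0116 for P2_5A_T7_1328919). Contig11 had a difference of 3.09 (adjusted p = 0.0292), at -3.87 ± 0.10 with Ag-NP, -6.97 ± 1.08 with AgNO3 and -3.06 ± 0.21 in clean soil (SD, n = 3 each). Only 1 of the 3 AgNO3 arrays measured it well above background. P2_5A_T7_1328919 had a fitted difference of 2.05 (adjusted p = 0.0303), but no AgNO3 array measured it well above background, so its mean with Ag-NP was at least 1.79-fold higher.

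With slide as a block Ealb_Met_P8_C1_SP6_2090691 alone of these 4 passed (limma, adjusted p = 0.0364), and the others had 0.0821 for Contig11 and 0.118 for both remaining probes. With normexp none of the 399 probes passed (limma, smallest adjusted p = 0.494), while with normexp and quantile normalization 36 passed, 2 of them among these 4. Normexp adds 50 to every signal, so for dim probes such as these its result does not decide whether the forms differ. With the main processing, the number of probes that passed was 0 without Ag-NP replicate 2 or Ag-NP replicate 3, 1 without clean-soil replicate 2 and 35 without Ag-NP replicate 1.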

How the results depend on the processing

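The count of 0 probes for Ag-NP at 200 mg/kg against clean soil stayed 0 in 24 of 29 alternatives (limma). It was 4 with the 6 arrays alone, 15 (all lower) with brightness as a covariate, 100 (26 higher, 74 lower) with array weights, whose estimation stopped before converging, and 0 to 12 leaving out 1 replicate at a time, the 12 without Ag-NP replicate 1. Of the 15 lower probes 7 were among these 12. Within slide 1 the count was 2, which carries little weight: clean soil had 1 array there, assumed to vary like the 2 Ag-NP arrays, and both probes were at or near background in clean soil. Within slide 3 the Ag-NP arm was 1 array. With the replicate block the count was 0. Same-numbered arrays of both groups had deviations correlated at -0.15, 0.21 and -0.18, so the numbers were not read as pairs.

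The median log2 difference was 0.14 when scaled to the 75th percentile of all spots, 0.19 with the array median, 0.088 in the authors' values, 0.14 within slide 1 and -0.24 with spike-in scaling. It ran from -0.20 to -0.02 leaving out 1 replicate. The 5 named probes kept their sign in every alternative that tested them. In part this was fixed in advance: where the groups do not overlap, leaving out or weighting arrays or comparing within a slide cannot reverse the sign. With normexp 3 of the log2 differences shrank: Ealb_Met_P8_C1_SP6_2090691 was at -0.22, Contig110 at -0.27 and Ealb_Met_P3_C7_SP6_2090377 at 0.54 (0.49 with quantile normalization as well). P2_C1_T7_1328895 was at 2.17 and Ealb_Met_P2_F2_SP6_2090247 at 2.13. The count that did not overlap was 23 with spike-in scaling, 23 with normexp (10 higher, 13 lower) and 89 of 1035 without a filter (26 higher, 63 lower). It was 32 of 272 with the filter on all 6 arrays (12 higher, 20 lower) and 24 of 227 with that on all 15 (12 higher, 12 lower).

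For Ag-NP at 200 against 100 mg/kg the count of 0 became 1 with quantile normalization, slide as a random block or brightness, 101 with array weights and 0 to 3 leaving out 1 replicate. For Ag-NP against AgNO3 at 200 mg/kg the count of 4 became 14 with the percentile of all spots, 24 with quantile normalization, 36 with normexp and quantile normalization, 13 in the authors' values, 7 without a filter, 43 within slide 1, 87 with brightness and 254 with array weights. It became 1 with spike-in scaling, with the filter on all 6 arrays or with slide as a block, and 0 with normexp, with all spots well above background, within slide 3 or with probes measured on all 15 arrays. Leaving out 1 replicate of Ag-NP or clean soil gave 0 to 35. The alternatives for these last 2 comparisons, and the filter on all 15 arrays, were chosen after seeing the data. The causes were not tested. Probes near background, such as those 636 left out, are limited by signal, and 3 arrays a group limit the precision.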
